A study of Mus musculus with 12 samples.

Results

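The genes described here are Stra8, Meioc, Ythdc2, Prss50, Ly6k and Kmt2b, a group of 6 genes linked to meiotic entry or to differentiating spermatogonia. They were found as every probe set that the array annotation assigned to exactly one of the 6 symbols, each kept separate, which gave 7 of the 45037 non-control probe sets. Stra8, Meioc, Ythdc2, Prss50 and Kmt2b each had 1 probe set, and Ly6k had 2. Choosing them used gene names only and no measured value, although earlier results of these data were known when the group was drawn up. RNA came from the whole testis at postnatal day 7, and each Affymetrix array held RNA pooled from 3 testes, 1 from each of 3 animals. There were 3 groups of 4 arrays: wild type, Sohlh1-/- and Sohlh2-/-, called Sohlh1 knockout and Sohlh2 knockout here. All were on a hybrid background given as C57BL/6, 129S5, SvEvBrd, where the last pair of terms together names 1 substrain of 129 mice, and the labels give no other allele or treatment. The animals of each pool are not identified, so the p-values below measure the spread between pools.

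Retinoic acid drives spermatogonia to differentiate and, days later, to enter meiosis, and Stra8 is the retinoic acid-induced nuclear factor that switches on the meiotic programme together with its partner MEIOSIN. MEIOC binds the RNA helicase YTHDC2, which recognises methylated adenosine in RNA, and together with RBM46 they remove mitotic transcripts as meiosis begins. SOHLH1 and SOHLH2 are basic helix-loop-helix transcription factors of spermatogonia that are needed for differentiation and for expression of the receptor Kit. At postnatal day 7 the seminiferous tubules hold spermatogonia and Sertoli cells, and germ cells have not yet entered meiosis.

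The targeted genes gave a check of the labels. Sohlh1 signal was 1125 to 1233 on the wild-type arrays and 50.2, 61.0 and 104 on 3 of the arrays labelled Sohlh1 knockout, but 595 on the array labelled Sohlh1 knockout 5. Sohlh2 signal was 885 to 1200 on the wild-type arrays and 73.2, 93.6 and 157 on 3 of the arrays labelled Sohlh2 knockout, but 1847 on the array labelled Sohlh2 knockout 1. The array labelled Sohlh1 knockout 5 had a Sohlh2 signal of 94.4, and the array labelled Sohlh2 knockout 1 had a Sohlh1 signal of 126. Sohlh1 signal was 465, 494 and 563 on the other 3 arrays labelled Sohlh2 knockout. Sohlh2 signal was 1556, 1783 and 1605 on the other 3 arrays labelled Sohlh1 knockout. These 2 arrays therefore go against their labels in the targeted gene, and in both genes read nearer to the arrays of the other label. Every value of a single knockout below uses the labels as given, so each group holds 1 such array. The difference of the mean of both knockouts from wild type would be the same if these 2 arrays exchanged labels, but its limma p-value would not, since the estimate of spread uses the groups as labelled. The ratio of 3' to 5' control probe signal, a measure of RNA integrity, was also highest on the array labelled Sohlh2 knockout 1 (Gapdh 1.63, Actb 3.56) and next on the array labelled Sohlh1 knockout 2 (1.17 and 2.10). The other 10 arrays had Gapdh ratios of 0.744 to 0.818 and Actb ratios of 1.30 to 1.45. Calls of members and counts in gene lists that change without these arrays are given beside the result. The labelled tissue was checked against its markers, and all 16 germ cell genes and all 16 Sertoli cell genes with a single-gene probe set were above background on at least 4 arrays. This is a weak check, since 28694 of all 45037 non-control probe sets met the same limit.

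Promoter sequence is shown for Stra8 and Prss50, the best-known meiotic entry gene and the gene with the lowest knockout signal relative to wild type, because SOHLH proteins bind E-boxes (CANNTG) and retinoic acid receptors bind repeats of AGGTCA. The windows run from 250 bases before to 50 bases after the RefSeq transcription start, on the GRCm38.p6 build. The Stra8 window lies at chr6:34920698-34920997 and Prss50 at chr9:110857714-110858013, both on the plus strand, and AGGTCA is in capitals.
Stra8: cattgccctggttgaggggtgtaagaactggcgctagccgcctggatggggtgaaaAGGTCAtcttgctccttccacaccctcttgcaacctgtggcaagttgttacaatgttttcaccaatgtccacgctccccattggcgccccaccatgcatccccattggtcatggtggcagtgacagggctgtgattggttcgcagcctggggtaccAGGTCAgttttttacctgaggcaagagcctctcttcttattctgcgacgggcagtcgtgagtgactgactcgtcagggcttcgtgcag
Prss50: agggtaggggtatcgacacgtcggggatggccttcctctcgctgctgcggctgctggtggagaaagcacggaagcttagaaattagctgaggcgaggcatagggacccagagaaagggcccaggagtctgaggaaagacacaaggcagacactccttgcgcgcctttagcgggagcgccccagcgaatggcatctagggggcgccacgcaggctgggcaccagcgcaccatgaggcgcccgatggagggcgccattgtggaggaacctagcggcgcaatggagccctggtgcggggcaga
The Stra8 window held AGGTCA at 2 places, starting at -194 and -38 from the transcription start. These 2 copies lie far apart and do not form adjacent repeats. Among 32851 RefSeq promoter windows of the same length, 16.3% held AGGTCA on either strand and 1.81% held it at 2 or more places, at any spacing. The Prss50 window held no AGGTCA. Neither window held CANNTG, a motif that reads the same on both strands and was found in 72.3% of the promoter windows. The Meioc window, at chr11:102665335-102665634 on the plus strand, held neither motif. Prss50 has 2 annotated starts 3 bases apart, and the upstream one was used. These matches describe the windows, and no binding was measured.

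Prss50 and Ly6k were the members that passed the test, and both fell in Sohlh1 knockout and for the mean of both knockouts. Prss50 encodes a testis-specific relative of the trypsin family of serine proteases. Its signal (1439739_at) was 153, 184, 287 and 234 on the wild-type arrays, in the order of replicates 3 to 6. It was 71.0, 103, 73.2 and 21.1 on the Sohlh1 knockout arrays and 87.7, 54.2, 106 and 67.9 on the Sohlh2 knockout arrays. All 8 knockout arrays lay below all 4 wild-type arrays. The means were 215 ± 58.9 in wild type, 67.0 ± 33.9 in Sohlh1 knockout and 79.1 ± 22.8 in Sohlh2 knockout (SD, n = 4 arrays each), or 31.2% and 36.8% of wild type. The lowest value, 21.1, was on the array labelled Sohlh1 knockout 5 and was below the background limit of 48.6 (the 40th percentile of all values).

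Ly6k encodes a small glycolipid-anchored protein of the Ly6 family that sits on germ cells in a complex with TEX101 and is needed for sperm to pass into the oviduct. Its brighter probe set (1452855_at) read 295, 367, 573 and 397 on the wild-type arrays. It read 190, 174, 135 and 159 on the Sohlh1 knockout arrays and 282, 144, 266 and 208 on the Sohlh2 knockout arrays. Again no knockout array reached the lowest wild-type array, although the highest Sohlh2 knockout array, at 282, came close to the lowest wild-type array at 295. The means were 408 ± 118, 165 ± 23.2 and 225 ± 62.6 (SD, n = 4 arrays each), so the knockouts held 40.3% and 55.2% of the wild-type signal.

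In limma, fitted across all 28694 probe sets above background, Prss50 was lower in Sohlh1 knockout, where it fell by 1.59 on the log2 scale (SE 0.33, adjusted p = 0.0244) and Ly6k fell by 1.21 (SE 0.22, adjusted p = 0.0112). These 2 of the 6 tested members passed an adjusted p of 0.05 in Sohlh1 knockout, where 2.09% of all probe sets tested passed in either direction and 1.38% passed as lower. In Sohlh2 knockout the log2 differences were -1.29 for Prss50 (95% interval -2.0 to -0.58, limma adjusted p = 0.0720) and -0.82 for Ly6k (-1.29 to -0.35, limma adjusted p = 0.0881). None of the 6 tested members passed in Sohlh2 knockout in limma, where 1.55% of all probe sets did and 0.944% did so as lower. There 3 members had an unadjusted limma p under 0.05 (Prss50, Ly6k and Stra8), as did 3870 of all 28694 probe sets. In Sohlh1 knockout 4286 of all probe sets had an unadjusted p under 0.05. With the mean of both knockouts set against wild type, Prss50 fell by 1.44 (SE 0.29, limma adjusted p = 0.0124) and Ly6k fell by 1.02 (SE 0.19, limma adjusted p = 0.00905). The same comparison called 2 of the 6 members, against 3.49% of all probe sets in either direction and 2.13% as lower. Non-overlap of the knockout arrays with wild type on the low side, which Prss50 and Ly6k showed in each knockout and Stra8 in Sohlh1 knockout, was found for 6.08% of probe sets in Sohlh1 knockout and 4.69% in Sohlh2 knockout. Over all 8 knockout arrays together it was found for 2.98%. These differences are of whole testes, in which fewer spermatogonia and less RNA per spermatogonium cannot be told apart.

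**Figure D1:**
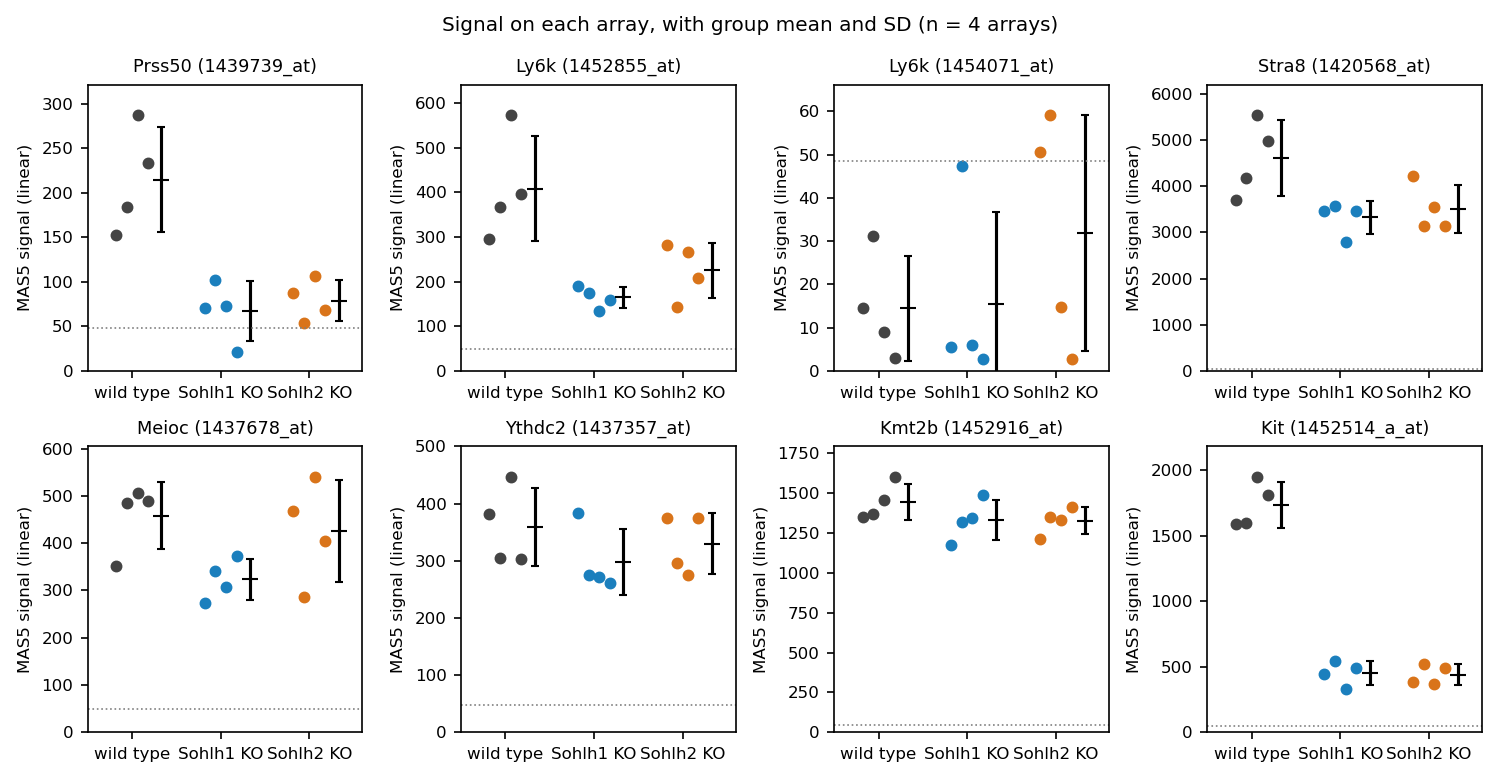
MAS5 signal (linear scale, vertical axis) of the 7 probe sets and of Kit on each of the 12 arrays, with 1 point per array, the group mean as a horizontal bar and the SD as a vertical line (cut at 0), and the background limit of 48.6 dotted. All 8 knockout points of Prss50 and of the brighter Ly6k probe set lie below the 4 wild-type points, whereas those of Ythdc2 and Kmt2b overlap wild type in both knockouts.

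The Ly6k call held under all alternatives tried for Sohlh1 knockout, with limma adjusted p from 0.00195 to 0.0442. The Prss50 call in Sohlh1 knockout was lost on leaving out wild-type replicate 4, 5 or 6 (limma adjusted p = 0.0598, 0.0970 and 0.0855) or Sohlh1 knockout replicate 4 (0.0509). Without both arrays of doubted label, Prss50 was at -1.23 in Sohlh1 knockout (limma adjusted p = 0.0227) and at -1.35 in Sohlh2 knockout (limma adjusted p = 0.0183), and passed in both. Ly6k was then at -1.20 in Sohlh1 knockout (limma adjusted p = 0.0138) and at -0.94 in Sohlh2 knockout (limma adjusted p = 0.0595). Without both arrays of high 3' to 5' ratio, Ly6k passed in Sohlh2 knockout (-0.94, limma adjusted p = 0.0362) and Prss50 there did not (-1.35, limma adjusted p = 0.0638). With the arrays labelled Sohlh1 knockout 2, Sohlh1 knockout 5 and Sohlh2 knockout 1 all left out, Prss50 in Sohlh1 knockout no longer passed (-1.14, limma adjusted p = 0.0710), while in Sohlh2 knockout both Prss50 (limma adjusted p = 0.0157) and Ly6k (0.0456) passed. For the mean of both knockouts, Prss50 missed the threshold without wild-type replicate 5 (limma adjusted p = 0.0680) or 6 (0.0593), and Ly6k passed under every alternative.

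The second Ly6k probe set (1454071_at) was too dim to test. It read 14.6, 31.2, 8.91 and 3.06 on the wild-type arrays, 5.60, 47.4, 6.09 and 2.80 on the Sohlh1 knockout arrays, and 50.6, 59.1, 14.7 and 2.77 on the Sohlh2 knockout arrays. Only 2 Sohlh2 knockout arrays exceeded the background limit, and the groups overlapped. At such levels it gives no second reading of the change in Ly6k.

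Stra8, the retinoic acid-induced meiotic factor, was already bright at postnatal day 7 and kept most of its signal in the knockouts. Its probe set (1420568_at) read 3693, 4184, 5540 and 4991 on the wild-type arrays. It read 3458, 3580, 2792 and 3471 on the Sohlh1 knockout arrays, all below wild type, and 4223, 3132, 3559 and 3131 on the Sohlh2 knockout arrays, where 3 of 4 lay below all wild-type arrays. The array above the lowest wild-type value was the one labelled Sohlh2 knockout 1. The means were 4602 ± 823, 3325 ± 360 and 3511 ± 515 (SD, n = 4 arrays each), which left 72.2% and 76.3% of the wild-type signal. The log2 differences were -0.46 in Sohlh1 knockout (SE 0.14, 95% interval -0.75 to -0.17, limma adjusted p = 0.110) and -0.38 in Sohlh2 knockout (-0.67 to -0.09, limma adjusted p = 0.215), and neither passed the threshold. The mean of both knockouts was -0.42 (SE 0.12, limma adjusted p = 0.0677). That comparison passed without the array labelled Sohlh2 knockout 1 (-0.47, limma adjusted p = 0.0183), without wild-type replicate 3 (-0.52, limma adjusted p = 0.0303) and without both arrays of doubted label (-0.48, limma adjusted p = 0.0281), both of high 3' to 5' ratio (-0.48, limma adjusted p = 0.0165) or all 3 (-0.50, limma adjusted p = 0.0245). The Sohlh1 knockout comparison also passed without the array labelled Sohlh2 knockout 1 (limma adjusted p = 0.0397), which enters it only through the shared estimate of spread. In all, Stra8 passed in 10 of 28 alternatives for the mean of both knockouts, 3 of 29 for Sohlh1 knockout and 0 of 29 for Sohlh2 knockout.

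Meioc, the germ cell partner of YTHDC2 that is needed to stay in meiotic prophase, did not pass in any comparison. Its probe set (1437678_at) read 353, 484, 506 and 489 on the wild-type arrays, 273, 341, 306 and 373 on the Sohlh1 knockout arrays, and 468, 287, 540 and 404 on the Sohlh2 knockout arrays. In Sohlh1 knockout 3 of 4 arrays lay below all wild-type arrays, and in Sohlh2 knockout the values ran from below to above the wild-type range. The means were 458 ± 71.0, 323 ± 43.0 and 425 ± 108 (SD, n = 4 arrays each). The log2 differences were -0.48 (SE 0.18, limma adjusted p = 0.224) and -0.13 (limma adjusted p = 0.809). The direct difference of Sohlh2 from Sohlh1 knockout was 0.35, with a 95% interval of -0.04 to 0.74, so the knockouts were not shown to differ in Meioc.

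Ythdc2, the helicase itself, overlapped wild type in both knockouts. Its probe set (1437357_at) read 381, 305, 447 and 304 on the wild-type arrays, 383, 276, 272 and 260 on the Sohlh1 knockout arrays, and 375, 295, 274 and 375 on the Sohlh2 knockout arrays. The means were 359 ± 68.8, 298 ± 57.1 and 330 ± 52.8 (SD, n = 4 arrays each). The log2 differences were -0.26 (95% interval -0.62 to 0.10, limma adjusted p = 0.509) and -0.11 (-0.47 to 0.25, limma adjusted p = 0.819). The lower bounds leave room for a loss of about the size seen for Stra8.

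Kmt2b, a methyltransferase that marks lysine 4 of histone H3 and is expressed in many cell types, had the narrowest spread of the 6. Its probe set (1452916_at) read 1347, 1369, 1454 and 1600 on the wild-type arrays, 1175, 1319, 1344 and 1484 on the Sohlh1 knockout arrays, and 1212, 1349, 1328 and 1414 on the Sohlh2 knockout arrays. The means were 1443 ± 115, 1331 ± 127 and 1326 ± 84.0 (SD, n = 4 arrays each), and the groups overlapped. The log2 differences were -0.12 in each knockout (95% interval -0.33 to 0.09 in each, limma adjusted p = 0.618 and 0.638). Both intervals lie wholly above that of Ly6k in Sohlh1 knockout, which ran from -1.68 to -0.74.

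As labelled, means fell in the order wild type, Sohlh2 knockout, Sohlh1 knockout for Prss50, Ly6k (brighter probe set), Stra8, Meioc and Ythdc2. For Kmt2b the knockout means were 1331 and 1326. This order leans on the arrays of doubted label. Sohlh2 knockout 1 had the highest knockout signal of Stra8 (4223) and Ly6k (282). Sohlh1 knockout 5 had the lowest of Prss50 (21.1) and Ythdc2 (260). With these labels exchanged, the Sohlh1 knockout mean would be the higher for Prss50, Stra8 and Ythdc2. For Ly6k the knockout means would be almost equal, and the order would hold for Meioc. The order as labelled is therefore no evidence that the knockouts differ. Differences between the knockouts under such an exchange were not tested. No neighbouring pair of knockout means differed beyond its spread. In the direct comparison of Sohlh2 with Sohlh1 knockout, none of the 6 members and 0% of all probe sets passed in limma, and 767 probe sets had an unadjusted p under 0.05, none of them a member. The differences of Sohlh2 from Sohlh1 knockout were 0.29 for Prss50 (95% interval -0.42 to 1.00), 0.39 for Ly6k (-0.08 to 0.86), 0.07 for Stra8 (-0.22 to 0.36) and 0.15 for Ythdc2 (-0.22 to 0.51). For Kmt2b the interval ran from -0.21 to 0.21. The arrays that go against their labels bear on this comparison more than on any other, and without both of them the Prss50 difference turned to -0.12 and the Kmt2b difference to 0.09, with no member passing.

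**Figure D2:**
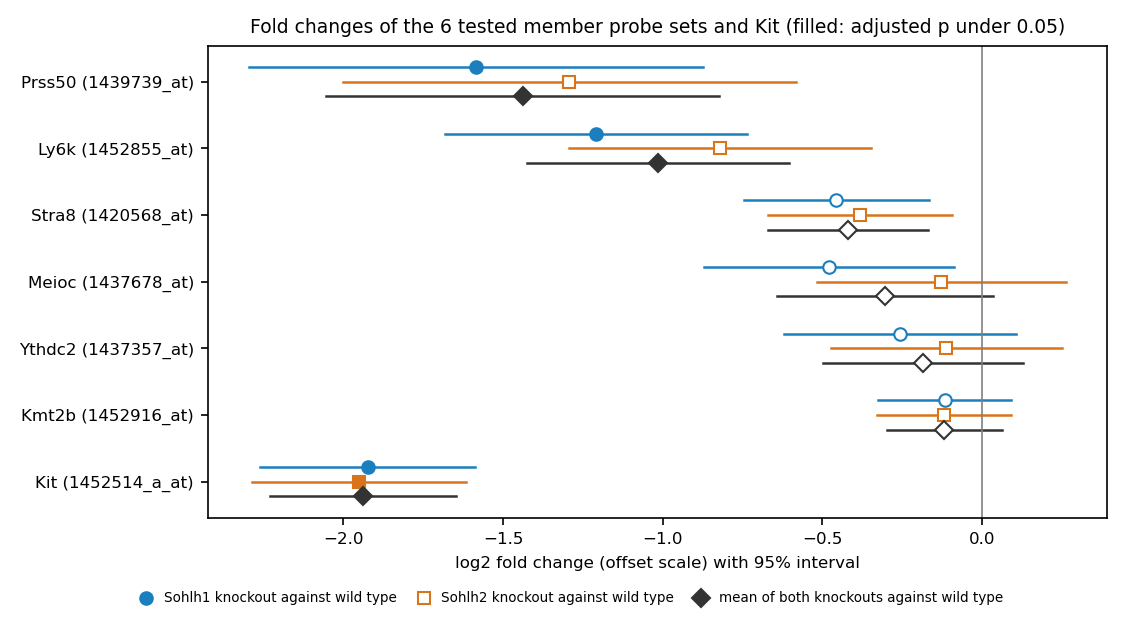
Log2 fold change (horizontal axis, on the scale of log2 signal plus 14.2) of the 6 tested probe sets and of the brighter Kit probe set in Sohlh1 knockout (circles), Sohlh2 knockout (squares) and the mean of both (diamonds), with 95% intervals as lines and filled symbols for a limma adjusted p under 0.05. Prss50 at -1.59 and Ly6k at -1.21 pass in Sohlh1 knockout, the intervals of Ythdc2 and Kmt2b span 0 throughout, and Kit lies near -1.9 in each comparison.

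Changes were then compared between probe sets within each array, which removes any factor that scales a whole array. Only changes are compared in this way, since the brightness of one probe set cannot be set against that of another. All 27 such comparisons were tested by exact two-sided permutation of the 8 knockout and 4 wild-type arrays, which cannot give a p below 0.00404, and adjusted together. The comparisons were chosen after the values had been seen. With arrays left out there are fewer permutations, so the smallest possible p is higher. A threshold missed there need not mean a smaller difference. Kit, the receptor of differentiating spermatogonia, had a signal of 1739 ± 176 in wild type, 453 ± 91.2 in Sohlh1 knockout and 442 ± 76.6 in Sohlh2 knockout (1452514_a_at, SD, n = 4 arrays each). A dimmer Kit probe set (1415900_a_at) read 452 ± 66.3, 157 ± 52.6 and 145 ± 94.4 and was at -1.48 and -1.86 (limma adjusted p = 0.119 and 0.0549), so that it passed in neither single knockout. Relative to the brighter Kit probe set, Stra8 was higher in the knockouts by 1.52 on the log2 scale, Meioc by 1.63, Ythdc2 by 1.75 and Kmt2b by 1.82 (exact permutation p = 0.00404, adjusted 0.00909 for each). All 8 knockout arrays lay above all wild-type arrays in these 4 ratios. Kit itself was at -1.94 for the mean of both knockouts, with no overlap with wild type. A probe set with no change at all would therefore give much the same ratio and p. These 4 results show only that the genes did not fall as far as Kit. Ly6k was higher relative to Kit by 0.92 (exact permutation p = 0.00808, adjusted 0.0145), so it fell less than this Kit probe set. Without the same 3 arrays, that Ly6k difference was 0.85, with an adjusted exact permutation p of 0.0504. Against the dimmer Kit probe set, a comparison added later, Stra8, Meioc, Ythdc2 and Kmt2b again passed, at 1.25 to 1.55 (adjusted exact permutation p = 0.00992 to 0.0156), with 8, 7, 8 and 8 of 8 knockout arrays above all wild-type arrays. The Ly6k difference was then 0.65 and did not pass (exact permutation p = 0.251, adjusted 0.356). The change of Prss50 could not be told from that of the brighter Kit probe set (difference 0.50, exact permutation p = 0.206, adjusted 0.278), and 6 of 8 knockout arrays lay above all wild-type arrays, nor from that of the dimmer one (difference 0.23, exact permutation p = 0.824).

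The mean of 16 genes expressed in germ cells of any stage, among them Ddx4 and Dazl, was 10.86 ± 0.10 in wild type (n = 4) and 10.72 ± 0.08 in the knockouts (n = 8) on the log2 scale, a difference of -0.14. Single genes of the 16 moved both ways: for the mean of both knockouts 12 were on the lower side and 4 on the higher. Dppa3 fell (-1.29, limma adjusted p = 0.0130), while Stk31 (0.53, limma adjusted p = 0.00189) and Ddx25 (0.46, limma adjusted p = 0.0197) rose. Without both arrays of doubted label, both of high ratio or all 3, 3 fell and 2 rose. Of the 16, Mael and Sycp3 are also on the early meiotic prophase list below, and no reference without them or Dppa3 was tried. Relative to the mean of the 16 genes, Prss50 was at -1.30 and Ly6k at -0.87 in the knockouts on the log2 scale (exact permutation p = 0.00404, adjusted 0.00909 for each), with all 8 knockout arrays below all wild-type arrays. Stra8 was at -0.28 (exact permutation p = 0.0283, adjusted 0.0477), with 5 of 8 knockout arrays below all wild-type arrays. Without the same 3 arrays its difference was -0.36 with an adjusted exact permutation p of 0.0504, and the smallest possible p was then higher. Meioc (-0.16, exact permutation p = 0.311), Ythdc2 (-0.04, exact permutation p = 0.796) and Kmt2b (0.02, exact permutation p = 0.667) did not pass. The summed signal of the 16 germ cell genes was 42318 to 47817 on wild-type arrays, 39409 to 45169 on Sohlh1 knockout arrays and 41147 to 46012 on Sohlh2 knockout arrays. The summed signal of 16 Sertoli cell genes was 114857 to 133844, 131089 to 148959 and 124332 to 138696, and 15 of these 16 genes were on the higher side for the mean of both knockouts, with 1 (Tjp1) passing, in 13 of 28 alternatives. The part of such a shift between cell types in the member results was not tested.

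Between members, Prss50 fell more than Stra8 (a difference of -1.02 on the log2 scale), Meioc (-1.14), Ythdc2 (-1.25) and Kmt2b (-1.32), each with an exact permutation p of 0.00404 and an adjusted p of 0.00909. Ly6k fell more than Stra8 (-0.60) and Meioc (-0.71) with the same p, and more than Ythdc2 (-0.83) and Kmt2b (-0.90) with an adjusted exact permutation p of 0.0145. The Ythdc2 difference had an adjusted exact permutation p of 0.0504 without the 3 arrays. Prss50 and Ly6k themselves were not told apart (-0.42, exact permutation p = 0.0727, adjusted 0.109). Stra8 and Kmt2b differed by -0.30 (exact permutation p = 0.0566, adjusted 0.0898), which passed without both arrays of doubted label (-0.35, adjusted exact permutation p = 0.0321), both of high ratio (-0.41, adjusted 0.0184) or all 3 (-0.40, adjusted 0.0306). The other 5 pairs did not pass.

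**Figure D3:**
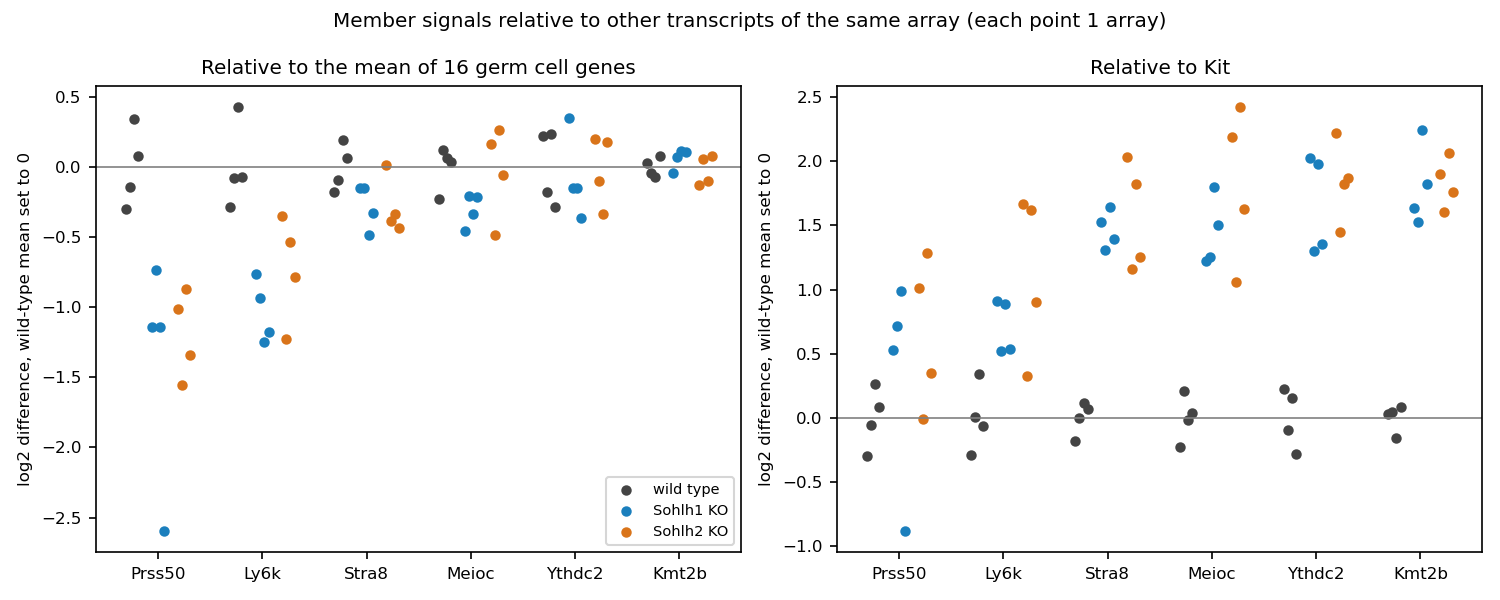
Log2 signal of each of the 6 genes minus the mean of 16 germ cell genes (left) or minus the brighter Kit probe set (right) on the same array, with the wild-type mean set to 0 (vertical axes) and 1 point per array. On the left Prss50 and Ly6k lie below wild type on all 8 knockout arrays and Kmt2b stays near 0, and on the right Stra8, Meioc, Ythdc2 and Kmt2b lie above wild type on all 8.

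Other genes of meiotic entry were read from a list of 16, of which 13 were measured at 1 probe set a gene. In Sohlh1 knockout 1 of 13 fell and 0 rose, with a median log2 difference of -0.11, against 2.89% of the 13702 genes passing (1.83% lower, 1.06% higher) and a median of 0.03 over all genes. In Sohlh2 knockout 2 of 13 fell and 0 rose (median -0.08), against 2.17% of all genes (1.28% lower, 0.898% higher). Rbm46, the RNA-binding partner of MEIOC and YTHDC2, fell from 2673 ± 329 in wild type to 1556 ± 221 in Sohlh1 knockout and 1590 ± 145 in Sohlh2 knockout (SD, n = 4 arrays each). Its log2 differences were -0.78 (limma adjusted p = 0.00356) and -0.74 (limma adjusted p = 0.00641), and both passed under all 29 alternatives. Rbm46 was thus the one of the 3 partners that passed, since Meioc and Ythdc2 did not. Dmrt1, which holds back meiotic entry and Stra8 in spermatogonia, was at -0.28 in Sohlh1 knockout (limma adjusted p = 0.0627) and fell by 0.32 in Sohlh2 knockout (limma adjusted p = 0.0352), a call that held in 14 of 29 alternatives. Rec8, a meiotic cohesin that retinoic acid induces, was at 0.37 and 0.64 (limma adjusted p = 0.264 and 0.0518), and rose by 0.51 for the mean of both knockouts (limma adjusted p = 0.0497), which held in 11 of 28 alternatives. For that mean 2 of 13 fell and 1 rose, against 4.69% of all genes (2.7% lower, 1.99% higher). In Sohlh2 knockout 1 fell without both arrays of doubted label, and in Sohlh1 knockout 2 fell without both arrays of high 3' to 5' ratio. For the mean, 0 rose without the doubted-label arrays or all 3.

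Genes of early meiotic prophase, many of which depend on STRA8 in later germ cells, moved both ways. Of 27 measured from a list of 31, 3 fell and 2 rose in Sohlh1 knockout (median -0.03), and 0 fell and 3 rose in Sohlh2 knockout (median 0.06). In Sohlh2 knockout 1 fell and 2 rose without both arrays of doubted label, and 2 fell and 3 rose without both arrays of high 3' to 5' ratio or all 3. In Sohlh1 knockout 4 fell without the high-ratio arrays and 2 without all 3. For the mean of both knockouts 4 fell and 3 rose, with 3 to 5 falling when such arrays were left out. Mnd1, a recombination factor that works with DMC1, rose from 211 ± 18.9 to 469 ± 33.5 and 466 ± 24.5 (SD, n = 4 arrays each), by 1.10 and 1.09 on the log2 scale (limma adjusted p = 0.000160 and 0.000195). Hormad1, a protein of meiotic chromosome axes, rose by 0.74 and 0.77 (limma adjusted p = 0.0159 and 0.0144). The Mnd1 calls held in 29 of 29 alternatives in each knockout and those of Hormad1 in 26 of 29. Sycp2, another axis protein, rose in Sohlh2 knockout by 0.69 (limma adjusted p = 0.0452, held in 15 of 29). Syce1, of the central element of the synaptonemal complex, was at -0.51 in Sohlh1 knockout (limma adjusted p = 0.0163, held in 23 of 29). The remaining 2 that fell in Sohlh1 knockout, named after their values were seen, were Syce2 (-0.51, limma adjusted p = 0.0294, held in 21 of 29) and Mei4 (-0.85, limma adjusted p = 0.0269, held in 18 of 29).

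Among writers, erasers and readers of methylated adenosine, the RNA mark that YTHDC2 recognises, 0 of 17 measured genes passed in Sohlh1 knockout (median 0.08) and 0 of 17 in Sohlh2 knockout (median 0.16) in limma. At an unadjusted p under 0.05, 2 were lower and 2 higher in Sohlh1 knockout and 3 and 3 in Sohlh2 knockout. The methyltransferase pair Mettl3 and Mettl14 was at 0.21 and 0.27 in Sohlh1 knockout (limma adjusted p = 0.345 and 0.501). For the mean of both knockouts 2 fell and 1 rose: Cbll1 at -0.31, Igf2bp1 at -0.51 and Igf2bp3 at 0.55 (limma adjusted p = 0.0464, 0.0418 and 0.0399). These calls held in 10, 13 and 13 of 28 alternatives, and with all 3 doubted or high-ratio arrays left out 0 fell and 0 rose. Of 21 subunits and partners of the COMPASS methyltransferases, the family to which KMT2B belongs, 1 fell and 0 rose in each knockout. That gene was Cxxc1, the subunit that reads unmethylated CpG, which fell by 0.46 in each (limma adjusted p = 0.0225 and 0.0249). It passed in 20 of 29 alternatives in each knockout, at -0.50 to -0.38 in Sohlh1 knockout and -0.50 to -0.41 in Sohlh2 knockout. Both calls were lost under median centring, without trend, with the replicate block, without wild-type replicate 4 or 5 and, with the highest p, when all its probe sets were averaged (-0.40 and -0.49, limma adjusted p = 0.349 and 0.248). The other losses came on leaving out knockout arrays, among them the Sohlh1 knockout call with all 3 doubted or high-ratio arrays left out. For the mean of both knockouts 2 of 21 fell, Cxxc1 (-0.46, limma adjusted p = 0.00640) and Paxip1 (-0.53, limma adjusted p = 0.0248, held in 20 of 28), and 3 fell with all 3 doubted or high-ratio arrays left out. In Sohlh1 knockout 2 fell and 1 rose without both arrays of doubted label, and 2 fell without both of high ratio. The medians of the 21 were 0.11 and 0.06, and other methyltransferase genes of the family, Kmt2a, Kmt2c and Kmt2d, were at 0.10, 0.35 and 0.29 in Sohlh1 knockout with none passing.

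Relatives of Ly6k and Prss50 did not pass in either single knockout. Of 29 listed Ly6 family genes and Tex101, 21 had a probe set of their own and 13 were above background, and 0 of 13 passed in either knockout in limma, with 1 lower and 2 higher at an unadjusted p under 0.05 in each. Tex101, whose protein partners LY6K, read 1971 ± 491 in wild type, 1517 ± 403 in Sohlh1 knockout and 1919 ± 204 in Sohlh2 knockout (SD, n = 4 arrays each), at -0.38 and -0.01 on the log2 scale (limma adjusted p = 0.393 and 0.989). For the mean of both knockouts 1 gene, Lynx1, fell (-0.59, limma adjusted p = 0.0439), and this held in 13 of 28 alternatives. In Sohlh2 knockout 1 of the 13 fell without both arrays of doubted label, both of high ratio or all 3, and for the mean 1 also rose without the doubted-label arrays or all 3. Of 17 testis serine proteases 5 were above background on enough arrays to be tested. In limma 0 of 5 passed in any comparison, with 0 at an unadjusted p under 0.05. These 5 were dim, with wild-type means from 38.7 (Prss55) to 68.3 (Prss41), around the background limit. Such levels leave little room for a fall, so whether the change in Prss50 is particular to it cannot be read from them.

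Markers of differentiating spermatogonia were read beside the members. Of 12 listed, all measured, 7 fell in Sohlh1 knockout (median -0.86) and 5 in Sohlh2 knockout (median -1.43), and 0 rose in either. The list holds Sohlh1 and Sohlh2 themselves and was drawn up with earlier results of these data known, so its direction is no independent evidence. Crabp1, a retinoic acid-binding protein, fell by 2.47 and 2.22 (limma adjusted p = 1.03e-06 and 3.40e-06), and Dmrtb1, a DM domain factor that acts in the passage from spermatogonial divisions to meiosis, was at -2.51 and -2.21 (limma adjusted p = 7.11e-05 and 0.000272). Kit, by its brighter probe set, was at -1.92 and -1.95. In Sohlh2 knockout 7 of the 12 fell without both arrays of doubted label or both of high ratio, and 8 without all 3, while in Sohlh1 knockout 7 fell each time. The 12 markers ranged from -3.12 (Sohlh1) to -0.06 (Ccnd2) in Sohlh1 knockout and from -2.22 (Crabp1) to 0.15 (Ccnd2) in Sohlh2 knockout. The values of Stra8, Meioc, Ythdc2 and Kmt2b, between -0.48 and -0.11, lay within that wide range but above both list medians. Elavl2 (-0.26 and -0.23) and Lin28a (-0.24 and -0.02) were among the markers that did not pass. Of 15 markers of undifferentiated spermatogonia, 2 fell and 3 rose in each knockout, and 4 or 5 rose in Sohlh2 knockout without the doubted-label or high-ratio arrays. Among 7 Leydig cell, 7 peritubular muscle, 8 endothelial and 9 leukocyte markers, 0 passed in either knockout in limma, and at an unadjusted p under 0.05 2 peritubular markers were lower in each and 1 leukocyte marker in Sohlh1 knockout.

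**Figure D4:**
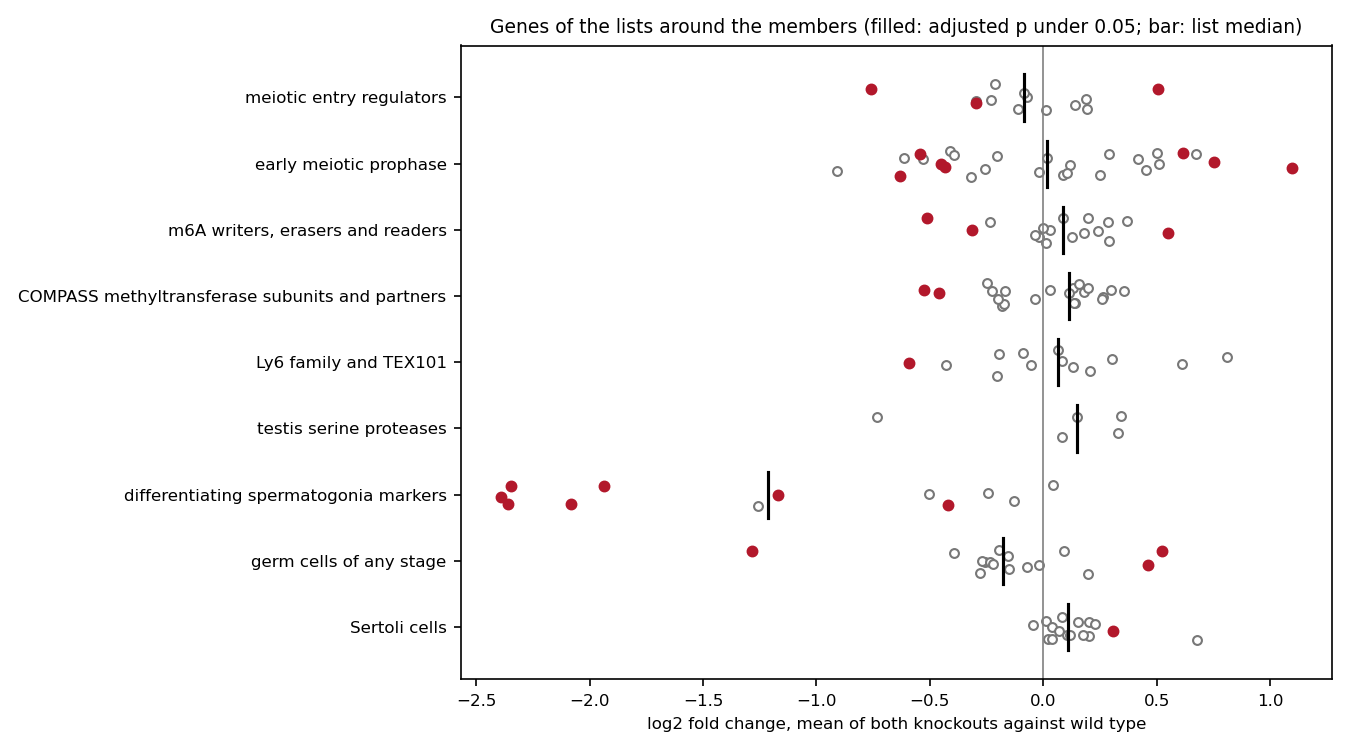
Log2 fold change for the mean of both knockouts against wild type (horizontal axis) of each measured gene in 9 lists (rows), with 1 point per gene, filled where the limma adjusted p is under 0.05, and a bar at the list median. The differentiating spermatogonia markers lie furthest to the left with a median of -1.21, while the medians of the meiotic entry, early meiotic prophase, methylated adenosine and COMPASS lists lie between -0.08 and 0.11.

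Profiles over the 12 arrays give a last description, with no test, since the arrays share genotypes and all carry the same group differences. Ly6k followed Sycp3 (Pearson r = 0.949), Nasp (0.948) and Slc25a33 (0.944) most closely among 13701 other genes, and 206 genes exceeded 0.8. Prss50 followed Rel (0.928), Caprin2 (0.926) and Cenps (0.925), and 152 genes exceeded 0.8. Stra8 followed Taldo1 (0.955), Eaf2 (0.954) and Nup93 (0.948). Meioc had 16 genes above 0.8, led by Plcb1 (0.877), Gid8 (0.865) and Sycp3 (0.858), and Ythdc2 had 5, led by Kin (0.892), Aspm (0.857) and Cdc42bpg (0.848). Kmt2b followed Rhbdd1 (0.943), Ldb1 (0.937) and Yif1b (0.925). Between members r was highest for Stra8 with Ly6k (0.918) and Prss50 with Ly6k (0.865) and lowest for Ythdc2 with Kmt2b (-0.21). The known partners Meioc and Ythdc2 had an r of 0.13 over the 12 arrays.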

How the data were processed

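MAS5 signals from whole-testis RNA on 12 Affymetrix arrays were analysed. The authors deposited linear intensity values, for which the submitters' processing notes name GCOS and MAS5, and the trimmed mean was 500 on each array, so scaling is global and a change is relative to the rest of the transcriptome. Array medians were 76.6 to 90.7. The number of arrays limits the precision.

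Values were log2 transformed after adding 14.2 (the 20th percentile), which understates changes of dim probe sets. Probe sets above 48.6 on at least 4 arrays were kept (28694 of 45037, with 64 control probe sets left out). Genotype was fitted on all 12 arrays in limma 3.58.1 (R 4.3.3) with lmFit, contrasts and eBayes with trend, and adjusted by Benjamini-Hochberg over all probe sets. Genes of lists were read from the probe set of highest mean. Of the probe sets, 34945 carried 1 symbol, 932 several and 9160 none. The 34741 symbols matched by gene ID to RefSeq stayed as given. The fit was tested on simulated data.

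The member genes and all lists were chosen with earlier results of these data known. The rule named all member probe sets, up to 3 genes of smallest p per list and knockout, and the 3 most similar profiles per member. Replicate numbers did not pair arrays (correlations of deviations -0.117 to 0.10). Alternatives covered offset, filter, normalization, array weights, trend, replicate block, probe set summary and left-out arrays.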

Additional observations from a re-analysis of the deposited data

Results flagged for a closer look

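In 4 of the 21 groups of 4 arrays (7 probe sets in 3 groups), 1 array stood apart from the other 3 by Dixon's criterion at the 95% level, which compares the gap to the nearest array with the group's range. Chance alone flags about 1 group in 20. The dim Ly6k probe set 1454071_at read 47.4 on Sohlh1 knockout replicate 3, where the gap was 0.926 of the range, below the background limit like the other 3 arrays. Meioc read 353 on wild-type replicate 3 (gap 0.856), lower than the other wild-type arrays. Stra8 read 2792 on Sohlh1 knockout replicate 4 (gap 0.845), lower than the other arrays of that group. Ythdc2 read 383 on Sohlh1 knockout replicate 2 (gap 0.875), higher than the other arrays of that group, and this array had one of the 2 highest 3' to 5' ratios. Whether RNA quality played a part in that value was not tested.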

How the results depend on the processing

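Each member probe set was refitted under up to 29 alternatives. Ly6k passed in 29 of 29 for Sohlh1 knockout and 28 of 28 for the mean of both knockouts, Prss50 in 21 of 28 and 24 of 27, and Meioc, Ythdc2 and Kmt2b in none. In Sohlh2 knockout Prss50 passed in 9 of 28 and Ly6k in 7 of 29. Median centring, which moved single arrays by up to 0.117 on the log2 scale, kept the direction of every member against wild type. Members called were 2 in Sohlh1 knockout and 1 under the stricter filter (which drops Prss50), both replicate blocks or without all 3 doubted or high-ratio arrays, and 1 to 3 on leaving out 1 array. In Sohlh2 knockout 0 were called, with 1 for the median as offset, only the groups compared, without the doubted-label arrays or without the high-ratio arrays, 2 for array weights, either gene-level summary, the 3' to 5' covariate or without all 3, and 0 to 1 on leaving out 1 array. For the mean of both, 2 became 1 under the stricter filter or the replicate block, and 1 to 3 on leaving out 1 array.

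Probe sets called in Sohlh1 knockout, 600, became 343 without trend, 1227 with array weights, 375 with gene means, 991 without the high-ratio arrays and 1230 with the 3' to 5' covariate, and 230 to 1238 on leaving out 1 array. In Sohlh2 knockout 445 became 293, 1075, 283 (only the groups compared), 747, 767 (without all 3) and 789, and 202 to 503 on leaving out 1 array. The mean of both, 1000, became 1925, 638, 1566 and 1532, and 430 to 1328 on leaving out 1 array. Between knockouts 0 became 9 without the doubted-label arrays and 11 without all 3. The replicate block, although the numbers do not pair the arrays, gave 338, 98 and 526 calls, with Prss50 at -1.60 (limma adjusted p = 0.0942) in Sohlh1 knockout and 0.115 for the mean of both. Among wild-type arrays 3, 4 and 5, 0 correlated best with the same-numbered Sohlh1 knockout array.

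Uncalled differences that turned sign were, between knockouts, Kmt2b (0.0053 with array weights, 0.093 without the doubted-label arrays, 0.034 without all 3, 0.018 with the covariate, -0.060 to 0.051 on leaving out 1 array), Prss50 (-0.12 without the doubted-label arrays, -0.20 without all 3, -0.067 to 0.51 on leaving out 1 array) and Stra8 (-0.018 to 0.13 on leaving out 1 array). In Sohlh2 knockout Meioc turned to 0.00052 with the replicate block and ran from -0.25 to 0.043 on leaving out 1 array. The cause of these changes was not tested.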
